A study of Mus musculus with 2 samples.

Results

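Fgf13, Dscam, Chl1, Dpp10, Camk2n1, Nrgn and Plxnc1 are genes best known from neurons that were described here in natural killer (NK) cells of the mouse spleen. These 7 of the 32285 genes in the matrix were picked by symbol because they stood out in clusters of these same cells, so their levels are given as a description and carry no p-values. All cells came from spleens of wild-type mice, with no treatment named in the labels; strain, sex and age were not given in the sources used here. A kit that holds back other blood lineages with antibodies left the NK cells untouched, lipid tags allowed cells of several mice to share 1 run, and the droplet library was made with the 10x 3′ v3.1 chemistry. The labels list 2 samples of this 1 group, of which 1 had a matrix and was analysed. The classes compared below are therefore classes of cells within 1 library of wild-type splenocytes, and 3 lipid tags, whose link to mice is not stated, serve as 3 replicates.

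In neurons these genes belong to the machinery that shapes connections and sets excitability. FGF13 is an intracellular member of the fibroblast growth factor family that binds voltage-gated sodium channels and microtubules and is not secreted. DSCAM and CHL1 are adhesion proteins of the immunoglobulin superfamily that guide axons and dendrites, and plexin C1, made by Plxnc1, is the receptor for semaphorin 7A. DPP10 is a peptidase-like protein without enzyme activity that rides with Kv4 potassium channels. Neurogranin, made by Nrgn, holds calmodulin when calcium is low, and CAMK2N1 is a natural inhibitor of the calmodulin-dependent kinase CaMKII. NK cells are innate lymphocytes that kill stressed cells, and in the mouse spleen they mature from cells with CD27 to cells with CD11b, the product of Itgam.

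The 16384 barcodes were all distinct, and 11696 passed the filters with exactly 1 tag, holding 64042589 gene UMIs (counts of unique molecules) in all. Tags held 3590 to 4213 cells with median totals between 4026.5 and 4433 UMIs per cell. NK-like clusters held 7915 of these cells, and 10 NK markers summed to between 19800 and 21200 counts per 1e6 gene UMIs (CPM) in them. A list of 8 neuron markers summed to 1.01 to 1.40 CPM in the NK-like cells of the 3 tags, with Snap25, Stmn2 and Nefl at 0. A list of 6 peripheral glia markers summed to 1.86 to 2.87 CPM there, with Sox10 at 0. Defining markers of nerve tissue were thus at or near 0 in NK-like cells. Their sums in the other classes, where most UMIs of Dscam, Chl1, Dpp10, Nrgn and Plxnc1 lay, are not given here. The tag proportions put the doublets that 1 tag cannot reveal at 1795, or 15.3% of the cells kept. Clusters 6, 11 and 20 were left without a name: cluster 6 held 685 shallow cells with few ribosomal transcripts, cluster 11 held 358 cells led by Cd3d, Cd3g and Crtam, and cluster 20 held 70 cells led by Cntn1, Il23r and Il7r. The best marker score of clusters 6 and 11 was NK, and that of cluster 20 was that of type 1 innate lymphoid cells (ILC1).

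The name "nerve-associated genes in NK clusters" held for some of the 7 and not for others when their UMIs were counted over all 11696 cells. NK-like cells, 67.7% of all cells with 37707104 of the 64042589 gene UMIs, held 87.3% of the Camk2n1 UMIs and 77.6% of the Fgf13 UMIs. They held 40.9% of the Chl1 UMIs, and clusters 6 and 11 held a further 45.4%. They held 33.5% of the Plxnc1 UMIs, 30.1% of the Nrgn UMIs and 16.5% of the Dscam UMIs. Only 3.3% of the 788 Dpp10 UMIs lay in NK-like cells, whereas 94.5% lay in cells like conventional dendritic cells. Levels were set in order over 18 classes, and most neighbours in each order overlapped between tags: of 17 neighbouring pairs, only 1 for Camk2n1, 2 for Dscam, Chl1, Dpp10 and Plxnc1, 3 for Fgf13 and 4 for Nrgn were separated in all tags.

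**Figure D1:**
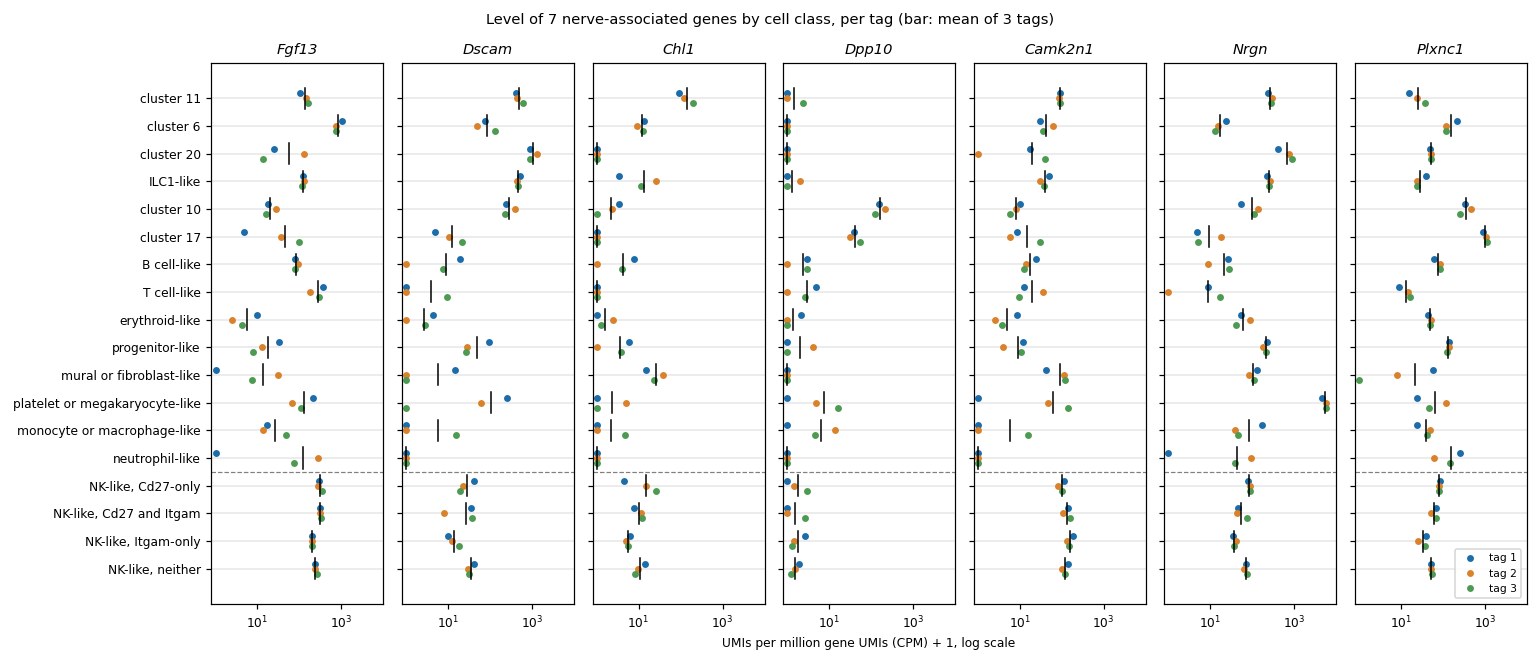
Level of each gene in 18 cell classes, as CPM plus 1 on a log axis, with 1 point per tag and a bar at the mean of 3 tags; the 4 NK-like maturation classes stand below the dashed line. Camk2n1 is highest in NK-like classes, Dpp10 in dendritic clusters 10 and 17, and Nrgn in platelet or megakaryocyte-like cells.

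Fgf13 (ENSMUSG00000031137), the gene of the sodium channel partner FGF13, spans 506 kb on chromosome X (59062145 to 59568071, minus strand, mm10). Its level in NK-like cells was 236 CPM in tag 1, 231 in tag 2 and 247 in tag 3, a mean of 238 ± 8.37 CPM (SD, n = 3). The 3 tags lay within a narrow band, and 37.4% of NK-like cells held at least 1 UMI. With each cell thinned to 2500 UMIs, 29.8% ± 0.591 of NK-like cells held a UMI, against 12.4% ± 1.48 of B cell-like cells and 0.989% ± 1.07 of erythroid-like cells. The unthinned shares of those classes were 17.4% and 6.73%, at median depths of 3905 and 23581 UMIs, beside 3984 in NK-like cells. The highest class was cluster 6, with 842 ± 176 CPM, and its tags did not overlap those of any NK-like maturation class. T cell-like cells held 281 ± 95.2 CPM, with tags between 178 and 366, and these overlapped the NK-like maturation classes. Cluster 11 held 135 ± 27.8 CPM and ILC1-like cells 122 ± 5.5 CPM, which also overlapped each other. Fgf13 was low in dendritic cluster 10, at 19.3 ± 6.35 CPM, and in progenitor-like cells, at 17 ± 13.3 CPM. The 4 annotated genes Gm14890, Gm26351, Gm26487 and Mir504 overlap its span, and how reads there were assigned is not given in the sources used here.

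Camk2n1 (ENSMUSG00000046447), the gene of the CaMKII inhibitor, is short, with a span of 5.81 kb on chromosome 4 (138454314 to 138460123, plus strand, mm10). NK-like cells held 154 CPM in tag 1, 110 in tag 2 and 129 in tag 3, a mean of 131 ± 22 CPM (SD, n = 3). Tag 1 was the highest in this class and tag 2 the lowest, and the same order of tags recurs within the NK-like maturation classes other than the Cd27 and Itgam double-positive one. Thinned cells held a UMI in 28.5% ± 3.96 of NK-like cells, against 2.64% ± 0.281 of B cell-like cells (unthinned 40.7% and 5.04%). The 4 NK-like maturation classes led its order, with 99.7 ± 16.1 CPM in Cd27-only cells as the lowest of them and 156 ± 26.4 CPM in Itgam-only cells as the highest. Mural or fibroblast-like cells came next by the mean of tags, at 92.4 ± 44 CPM, with 41.9 CPM in tag 1, from 9 cells, and 113 and 122 CPM in tags 2 and 3. In tags 2 and 3 they stood above Cd27-only cells, which held 82.6 and 102 CPM. With tags pooled they held 111 CPM and Cd27-only cells 98.6 CPM. Thinned cells held a UMI in 25.2% ± 13.3 of mural or fibroblast-like and 24.4% ± 5.2 of Cd27-only cells. Cluster 11 held 88 ± 3.59 CPM. Cluster 6 held 42.1 ± 16.2 CPM and ILC1-like cells 38.2 ± 10.9 CPM, whose tags overlapped. Dendritic cluster 10 had 7.22 ± 2.23 CPM. Genes of its target kinase were counted in NK-like cells: Camk2d, a CaMKII subunit gene, averaged 149 ± 2.55 CPM and Camk2g, another, 118 ± 10.1 CPM.

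Nrgn (ENSMUSG00000053310), the gene of the calmodulin holder neurogranin, spans 8.41 kb on chromosome 9 (37544492 to 37552904, minus strand, mm10). Platelet or megakaryocyte-like cells held 4640 CPM in tag 1, 5660 in tag 2 and 5680 in tag 3, and all 91 of these cells had a UMI. Those cells are also where neurogranin is known outside the nervous system. NK-like cells held 56.3, 57.4 and 64.1 CPM in tags 1, 2 and 3, a mean of 59.3 ± 4.19 CPM (SD, n = 3). Thinned cells held a UMI in 9.8% ± 0.0815 of NK-like cells and in 3.17% ± 1.65 of B cell-like cells (unthinned 15.5% and 5.04%). Platelet RNA was measured beside it: 116 NK-like cells held a UMI of Pf4 or Ppbp, which mark platelets, and they averaged 55.8 ± 34 CPM of Nrgn, against 59.3 ± 4.45 CPM in the 7799 NK-like cells without one. Unnamed clusters 20 and 11 and ILC1-like cells stood above NK-like cells, with 679 ± 242 CPM in cluster 20, 267 ± 33.2 CPM in cluster 11 and 244 ± 20 CPM in ILC1-like cells. Cluster 11 and ILC1-like cells overlapped between tags, and both lay above every NK-like maturation class. Progenitor-like cells held 207 ± 21.5 CPM.

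Plxnc1 (ENSMUSG00000074785), the semaphorin 7A receptor gene, spans 154 kb on chromosome 10 (94790866 to 94944835, minus strand, mm10). Dendritic cluster 17, which carries Fscn1, Ccr7 and Il12b, held 898, 1040 and 1130 CPM in tags 1, 2 and 3, a mean of 1020 ± 118 CPM (SD, n = 3). Dendritic cluster 10 held 341, 460 and 251 CPM, so the 2 dendritic clusters did not overlap. NK-like cells held 51.4, 46.8 and 51.6 CPM, a mean of 49.9 ± 2.73 CPM. Thinned cells held a UMI in 8.35% ± 0.58 of NK-like cells, in 12.5% ± 1.75 of B cell-like cells and in 1.65% ± 1.44 of T cell-like cells (unthinned 14.9%, 23% and 7.14%). Cluster 6 held 152 ± 60 CPM and progenitor-like cells 135 ± 7.38 CPM, which overlapped. ILC1-like cells, with 28.2 ± 9.21 CPM, and cluster 11, with 24.8 ± 11 CPM, were at the low end together with Itgam-only NK-like cells. Sema7a, the ligand gene, was counted in the same dendritic cluster as its receptor: cluster 17 held 34.6 ± 12.6 CPM and B cell-like cells 10.5 ± 3.23 CPM, while 3 Sema7a UMIs were found in all NK-like cells.

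Dscam (ENSMUSG00000050272), the axon guidance and self-avoidance gene, spans 580 kb on chromosome 16 (96590840 to 97170752, minus strand, mm10). Its order was led by clusters 20 and 11, both unnamed, and by ILC1-like cells. Cluster 20 held 905, 1320 and 870 CPM in tags 1, 2 and 3, cluster 11 held 425, 442 and 607 CPM, and ILC1-like cells held 506, 442 and 452 CPM. Cluster 20 lay above the others in every tag, whereas cluster 11 and ILC1-like cells overlapped. NK-like cells held 29.4, 21.2 and 24.3 CPM, a mean of 24.9 ± 4.14 CPM (SD, n = 3). Thinned cells held a UMI in 41.6% ± 3.9 of ILC1-like cells and 3.13% ± 0.688 of NK-like cells, against 0.848% ± 0.838 of B cell-like cells (unthinned 51.2%, 4.42% and 2.1%). Cluster 20 also held Cntn1, the gene of the neural adhesion protein contactin 1, at 769 ± 250 CPM, beside 0.731 CPM in NK-like cells. Its related genes did not follow it: Dscaml1, the closest relative, held 751 ± 100 CPM in dendritic cluster 17, where Dscam held 11.2 ± 8.47 CPM, and had 22 UMIs in all NK-like cells. Ncam1 had 5 UMIs and Nrcam 6 UMIs in NK-like cells, both being neural adhesion genes.

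Dendritic cluster 10 held Dscam and Dpp10 side by side, and both lay in the same fraction of it. In the 200 cells of the cluster with a UMI of Clec9a or Xcr1, genes of the cross-presenting dendritic subset, Dscam was at 18.7, 11.3 and 11.8 CPM, and in the 247 cells without either it was at 542, 827 and 698 CPM. Dpp10 was at 26.7, 18.8 and 1.82 CPM with a UMI of either gene and at 322, 438 and 374 CPM without. The tags of these fractions did not overlap for either gene. Plxnc1 averaged 193 ± 68.4 CPM with and 586 ± 88.1 CPM without. Cells with a UMI of either gene were deeper, at a median of 12015 UMIs against 6635, and the part of depth in this split was not tested. Of the dendritic genes, Zbtb46 was at 93.7 ± 15.6 CPM with and 103 ± 11.9 CPM without, and H2-Aa at 6300 ± 438 and 6340 ± 247 CPM. Whether the 2 fractions were alike in other dendritic genes is not given here.

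Dpp10 (ENSMUSG00000036815), the Kv4 channel partner gene, spans 724 kb on chromosome 1 (123321471 to 124045559, minus strand, mm10), and 10 annotated genes overlap it. Cluster 10 held 149, 215 and 121 CPM in tags 1, 2 and 3, and cluster 17 held 37.7, 30.8 and 53.1 CPM. Both dendritic clusters lay above every other class, and the 2 did not overlap each other. NK-like cells held 26 UMIs in all, or 0.928, 0.532 and 0.647 CPM in the 3 tags. Thinned cells held a UMI in 0.181% ± 0.0502 of NK-like cells and in 0.186% ± 0.323 of B cell-like cells (unthinned 0.316% and 0.84%), so the NK-like level was at background and was not read as expression. The Kv4 channel genes Kcnd1, Kcnd2 and Kcnd3 had 4, 12 and 1 UMIs in NK-like cells, and Dpp6, the closest relative of Dpp10, had 8. Dpp4, the active peptidase of the family, averaged 305 ± 46.7 CPM in cluster 10 and 1.47 ± 0.528 CPM in NK-like cells. Kcnip3, which encodes a Kv4-binding calcium sensor also known as the transcription repressor DREAM, was at 52.9 ± 8.05 CPM in cluster 10 and 92.8 ± 7.26 CPM in NK-like cells, and its relative Kcnip1 was at 8.21 ± 1.62 CPM in NK-like cells.

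Chl1 (ENSMUSG00000030077), the L1-like adhesion gene, spans 240 kb on chromosome 6 (103510586 to 103750211, plus strand, mm10), and 6 annotated genes overlap it. Cluster 11 held 92.9, 121 and 200 CPM in tags 1, 2 and 3, above every other class in all tags. Mural or fibroblast-like cells held 14, 37.7 and 22.5 CPM. NK-like cells held 8.6, 7.98 and 9.34 CPM, a mean of 8.64 ± 0.679 CPM (SD, n = 3). Thinned cells held a UMI in 23.8% ± 7.13 of cluster 11 and 1.19% ± 0.165 of NK-like cells, against 0.385% ± 0.667 of B cell-like cells (unthinned 30.7%, 2.25% and 0.98%). No Chl1 UMI was found in the 154 T cell-like cells, which allows up to 3.08 CPM, nor in the 70 cells of cluster 20, which allows up to 7.26 CPM. Intervals and floors of this kind cover counting error only. The T cell genes Cd3d and Cd3g, at 296 ± 24.8 and 206 ± 31.8 CPM, lead cluster 11, while Cd3e had 0 UMIs and Trac 9.73 ± 4.93 CPM there, beside 496 and 404 CPM in T cell-like cells.

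Genes with the most similar profile were sought over 42 profiles, 14 classes in 3 tags, among 8941 genes that averaged at least 10 CPM. The measure was Pearson's r of log2(CPM + 10), given as a description, since the profiles share 1 library and the replicates of a class resemble each other. Fgf13 was closest to Nsd3 (r = 0.948), Pde3b (0.936) and Gm2682 (0.934). Camk2n1 was closest to Atp1b1 (0.905), Tnfsf12 (0.888) and Arl4d (0.864). Dpp10 was closest to Clec9a (0.974), although within cluster 10 it lay in the cells without Clec9a, and then to Gm42601 (0.973) and Mpeg1 (0.948). Plxnc1 was closest to Zfp217 (0.878), Gtf2a1 (0.876) and Tmem131l (0.871), and Dscam to Lilrb4a (0.883), Serpina3g (0.816) and Lilr4b (0.795). Chl1 was closest to Sft2d2 (0.784), Gcnt1 (0.722) and Stk39 (0.704), and Nrgn to Kit (0.773), 2900026A02Rik (0.773) and Lgals3bp (0.754). Among themselves the 7 genes were less alike, with the highest r for Dpp10 and Plxnc1 (0.684), Dscam and Nrgn (0.618) and Fgf13 and Camk2n1 (0.567).

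Between Cd27-only and Itgam-only NK-like cells, 6 of the 7 genes could be compared, and they did not all point the same way. Cells thinned to 2500 UMIs were classed by UMIs of Cd27 and Itgam, which gave 903 Cd27-only, 436 double-positive, 2513 Itgam-only and 3379 cells with neither, and log2 folds are those of edgeR's fit over all genes with the tag as a block. Plxnc1, Nrgn and Fgf13 were higher in Cd27-only cells, set against Itgam-only cells, in all 3 tags, and Camk2n1 was lower in all 3. The 684 NK-like cells below 2500 UMIs were not classed, and Cd27-only cells were deeper, with a median of 5108 UMIs against 3819. Plxnc1 was at 82.9, 79.6 and 80.1 CPM in Cd27-only cells and at 38.5, 25.2 and 36.2 CPM in Itgam-only cells. The 2 classes did not overlap, and the log2 fold was 1.36 (SE 0.12). Nrgn was at 76.6, 88.9 and 88.7 CPM in Cd27-only cells and at 34.2, 40.1 and 35.9 CPM in Itgam-only cells, a log2 fold of 1.25 (SE 0.10) with no overlap. Fgf13 was at 294, 271 and 335 CPM in Cd27-only cells and at 202, 203 and 195 CPM in Itgam-only cells, a log2 fold of 0.63 (SE 0.060), again with no overlap. The share of all genes without overlap between these classes was not counted.

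Dscam and Chl1 pointed the same way with a wider spread. The SD of the log2 fold over the 3 tags was 1.02 for Dscam and 1.52 for Chl1, which the SEs below do not show. Dscam was at 39.7, 21.5 and 18.5 CPM in Cd27-only cells and at 9.06, 11.4 and 17.6 CPM in Itgam-only cells, a log2 fold of 1.14 (SE 0.22). It was higher in all 3 tags, by a small margin in tag 3, and the log2 fold was 0.57 without tag 1. It was 3.09 when NK cells were taken by UMIs without clusters and 2.81 when all clusters with NK as best score entered, which brings in cluster 11. Chl1 was at 3.45, 13.7 and 25.2 CPM in Cd27-only cells and at 5.10, 3.97 and 4.64 CPM in Itgam-only cells. Tag 1 ran against the other two, so the log2 fold of 1.59 (SE 0.33) was held by 2 of 3 tags, and it was 1.01 without tag 3. Camk2n1 was at 115, 82.6 and 102 CPM in Cd27-only cells and at 184, 132 and 151 CPM in Itgam-only cells, a log2 fold of -0.59 (SE 0.076). Its classes did not overlap, and each tag kept its place among the 3 in both classes. The classes outside this comparison did not all lie between its ends: Dscam averaged 33.3 ± 5.88 CPM in cells with neither UMI, and Fgf13 averaged 314 ± 8.76 CPM in double-positive cells, each above its Cd27-only mean but with overlapping tags. Dpp10 had 4 UMIs in the Cd27-only class and 9 in the Itgam-only class, too few to be fitted. NK-like cluster 0 held 42.2% of the Cd27-only and 12.3% of the Itgam-only class, and without clusters 0 and 8 the log2 folds were 0.40 for Fgf13, 0.75 for Plxnc1 and 2.03 for Dscam. T cell markers summed to between 192 and 248 CPM in Cd27-only cells and between 91.4 and 109 CPM in Itgam-only cells, with 1 of 9, Cd4, at 0 in both, and log2 folds without cells holding Trac, Cd3e, Cd4 or Cd8b1 were 1.33 for Plxnc1, 1.14 for Nrgn and 0.65 for Fgf13.

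**Figure D2:**
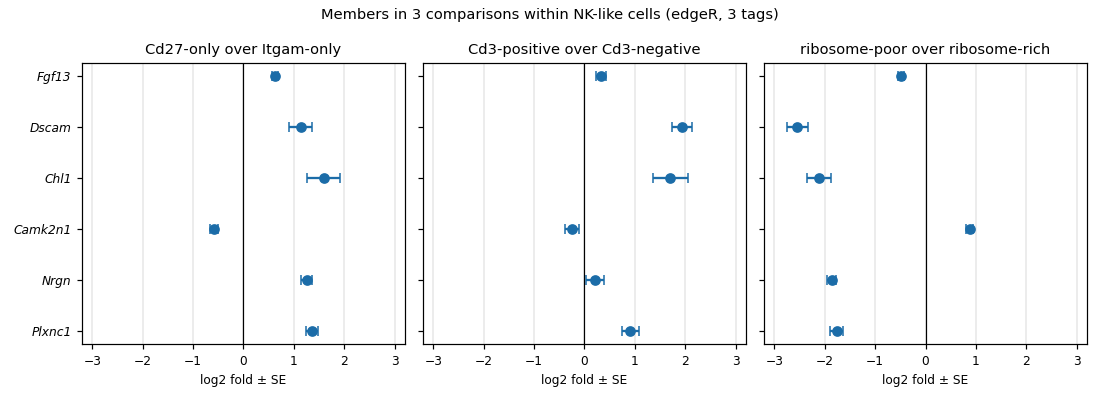
Log2 fold with its SE for 6 genes in 3 comparisons within NK-like cells, each from 3 tags; Dpp10 had too few UMIs. In the Cd27-only comparison Camk2n1 is lower while the other 5 are higher, and it is the 1 gene that is higher in ribosome-poor than in ribosome-rich cells.

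Plxnc1, Nrgn, Chl1 and Dscam had log2 folds above 1 in this comparison, and the 250 bases before their starts are shown, as RefSeq gives them in GRCm38.p6, on the strand of the gene. Cores of factors of early and mature lymphocytes were searched on both strands: CTTTGA (TCF7 and LEF1), TGTGGT (RUNX), TCACAC (T-box) and GGAAGT (ETS), and matches are in capitals. Chl1 holds CTTTGA at 189 bases before the start (chr6:103510626-103510875, plus strand), as do 13.8% of 32851 promoter windows of that length. Nrgn holds GGAAGT at 130 bases before the start (chr9:37552746-37552995, minus strand), as do 19.7% of the windows. The windows of Plxnc1 (chr10:94944846-94945095, minus strand) and Dscam (chr16:97170736-97170985, minus strand) hold none of the 4 cores. Fgf13, with a log2 fold of 0.63, has several RefSeq starts and its windows are not shown; 1 of them holds GGAAGT at 209 bases before the start. RUNX cores stand in 14% and T-box cores in 12.3% of all windows. A match is a string of letters and no evidence of binding. RefSeq and GENCODE place starts differently: the Chl1 window lies wholly, and those of Nrgn and Dscam partly, inside the spans given above, and both matches stand inside an annotated span.
Plxnc1: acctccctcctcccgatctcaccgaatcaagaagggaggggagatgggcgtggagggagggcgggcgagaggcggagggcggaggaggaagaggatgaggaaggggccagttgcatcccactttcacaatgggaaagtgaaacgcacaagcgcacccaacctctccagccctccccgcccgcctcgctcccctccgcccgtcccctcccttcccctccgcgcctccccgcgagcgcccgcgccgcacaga
Nrgn: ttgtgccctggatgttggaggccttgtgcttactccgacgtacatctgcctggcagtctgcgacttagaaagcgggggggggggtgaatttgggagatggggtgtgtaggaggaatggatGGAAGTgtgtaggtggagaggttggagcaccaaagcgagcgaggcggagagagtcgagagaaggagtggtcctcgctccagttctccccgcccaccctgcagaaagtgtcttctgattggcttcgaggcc
Chl1: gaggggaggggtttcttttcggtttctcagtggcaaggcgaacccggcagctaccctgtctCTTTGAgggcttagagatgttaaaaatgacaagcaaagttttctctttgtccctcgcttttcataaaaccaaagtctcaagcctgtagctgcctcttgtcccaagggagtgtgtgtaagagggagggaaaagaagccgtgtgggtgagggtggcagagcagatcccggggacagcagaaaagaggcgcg
Dscam: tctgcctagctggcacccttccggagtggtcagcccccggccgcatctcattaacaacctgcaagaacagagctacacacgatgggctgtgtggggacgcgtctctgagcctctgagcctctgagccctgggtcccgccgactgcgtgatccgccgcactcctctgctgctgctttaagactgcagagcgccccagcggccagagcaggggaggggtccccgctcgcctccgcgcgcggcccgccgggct

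The 6 lists of 104 genes comprised 5 lists of relatives and partners of the 7 genes and 1 list of nuclear long non-coding RNAs, and 31 of the 104 passed the expression filter in this comparison. In Cd27-only cells 3 were higher and 5 lower by edgeR's quasi-likelihood test at an adjusted p below 0.05, beside 7.88% higher and 5.31% lower of all 10366 genes tested. The calmodulin, CaM kinase and calcineurin list held 1 gene higher and 3 lower of 14 tested, with a median log2 fold of 0.024 beside -0.0045 over all genes. Ppp3ca, a catalytic calcineurin subunit gene, was at 379.8 CPM in Cd27-only cells, against 503.2 CPM in Itgam-only cells (log2 fold -0.35, SE 0.048, edgeR adjusted p = 2.59e-07, lower in 3 of 3 tags). The catalytic subunit genes Ppp3cb and Ppp3cc did not pass the test, with log2 folds of 0.017 and 0.051 (edgeR adjusted p = 0.94 and 0.64). Ppp3r1, a regulatory calcineurin subunit gene, was lower (log2 fold -0.44, SE 0.11, edgeR adjusted p = 0.0051, 3 of 3 tags). Camk2b was higher, with a log2 fold of 0.52 (SE 0.15, edgeR adjusted p = 0.010, 3 of 3 tags), and Kcnip1, a Kv4 channel partner gene, had a log2 fold of 0.92 (SE 0.29, edgeR adjusted p = 0.030, 3 of 3 tags). The genes called higher were lost in several alternatives, with 0 of them called without tag 1. Camk2d, Camk2g and Kcnip3 did not pass the test, with log2 folds of -0.086, 0.17 and -0.041. The plexin, semaphorin and neuropilin list had 0 of 7 genes called by edgeR, with 2 higher at an unadjusted p below 0.05 and a median log2 fold of 0.18, and the adhesion list had 0 of 2 called, with 1 higher and 1 lower at that unadjusted level. Of the 4 nuclear long non-coding RNAs tested, 1 was higher and 2 lower in Cd27-only cells. Malat1 averaged 21920 ± 871.3 CPM in Cd27-only cells, against 28420 ± 795.7 CPM in Itgam-only cells (log2 fold -0.32, SE 0.032, edgeR adjusted p = 7.97e-11, lower in 3 of 3 tags), and Neat1 had a log2 fold of -0.42 (SE 0.070, edgeR adjusted p = 1.58e-05, lower in 3 of 3 tags). Kcnq1ot1 had a log2 fold of 0.28 (SE 0.082, edgeR adjusted p = 0.017, higher in 2 of 3 tags). Malat1 and Neat1 thus ran in the direction of Camk2n1 and against Plxnc1, Nrgn, Fgf13, Dscam and Chl1, while Kcnq1ot1 ran the other way. The part of nuclear RNA in the Cd27-only comparison of the 7 genes was not tested. None of the 16 genes of the sodium channel list, among them Scn3a with 3 UMIs and Fgf12 with 17 UMIs in NK-like cells, was expressed enough to be tested.

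Cells with a UMI of Cd3d or Cd3g, genes of the T cell receptor complex that some NK cells also transcribe, numbered 208 among the thinned NK-like cells, against 7023 without. They were deeper, with a median of 5513.5 UMIs against 4162, and 44.2% of them lay in cluster 0, where Dscam, Chl1 and Plxnc1 averaged 45.7, 19.7 and 93.8 CPM; the part of depth and cluster was not tested apart from the alternatives below. Dscam was at 108, 71.9 and 83.9 CPM in the Cd3-positive cells and at 27.1, 20.2 and 22 CPM in the Cd3-negative cells. It was higher in every tag without overlap, with a log2 fold of 1.93 (SE 0.20). The 116 Dscam UMIs of the Cd3-positive class came from 20 of its 208 cells, and 45% of those held a single UMI, so few cells carried this level. Thinned cells held a Dscam UMI in 6.5% ± 2.89 of Cd3-positive and 3.02% ± 0.639 of Cd3-negative cells. Plxnc1 was at 84.3, 81.4 and 110 CPM in the Cd3-positive and at 51.6, 46.5 and 50.3 CPM in the Cd3-negative cells, a log2 fold of 0.91 (SE 0.16) without overlap. Chl1 was at 36.1, 12 and 30.7 CPM, from 35 UMIs in 11 cells, in the Cd3-positive and at 7.75, 7.96 and 8.26 CPM in the Cd3-negative cells, a log2 fold of 1.71 (SE 0.35). Thinned cells held a Chl1 UMI in 2.79% ± 1.09 and 1.13% ± 0.173 of these classes. The classes did not overlap for those 3 genes, while the others differed little or unevenly. How many of all genes were apart in this way was not counted, so the separation is a description. Fgf13 had a log2 fold of 0.33 (SE 0.094) and was higher in 2 of 3 tags, and its log2 fold was -0.36 without NK-like clusters 0 and 8. Nrgn had a log2 fold of 0.20 (SE 0.17), higher in 2 of 3 tags and 1.37 with all clusters whose best score was NK, where that of Plxnc1 was 0.39, and Camk2n1 one of -0.25 (SE 0.13), lower in 3 of 3. Dpp10 had 0 UMIs in the Cd3-positive cells, which allows up to 2.27 CPM, beside 0.703 CPM in the Cd3-negative cells.

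T cells were measured beside this result, and their part in it was not tested. The 9 genes of the T cell list, which holds Cd3d and Cd3g themselves, summed to between 498 and 626 CPM in Cd3-positive and between 123 and 131 CPM in Cd3-negative cells. Of this list, Cd3e was at 7.06 and Trac at 10.3 CPM in the Cd3-positive cells, and Cd4 and Cd6 were at 0. Levels of Cd5, Cd28 and Cd8b1 there, and of Cd3e and Trac in the Cd3-negative cells, are not given here. The 3 genes kept their direction under all alternatives, with moved values: Dscam had log2 folds of 2.95 with all clusters whose best score was NK and 1.37 with unthinned classes, and Plxnc1 had 0.27 with NK cells by UMIs. Chl1 had 0.87 without cells holding a UMI of Mki67 or Top2a and 3.22 without clusters 0 and 8, and Camk2n1 had -1.13 with a gate of 2 UMIs. In T cell-like cells, Dscam was at 2.89 ± 5 CPM, Chl1 at 0 and Plxnc1 at 12.4 ± 3.98 CPM, all below the levels of Cd3-positive NK-like cells. Without cells holding Trac, Cd3e, Cd4 or Cd8b1, the log2 folds were 2.02 for Dscam, 1.78 for Chl1 and 0.96 for Plxnc1. Cluster 11, with its Cd3d and Cd3g, shared high Dscam and Chl1 with these cells but not high Plxnc1, which was at 24.8 ± 11 CPM there. Of the 6 lists, 38 genes passed the filter, and edgeR called 0 higher, with 2 at an unadjusted p below 0.05 and 0 called by DESeq2. The 1 called lower was Malat1, a nuclear long non-coding RNA (log2 fold -0.25, SE 0.038, edgeR adjusted p = 2.51e-08, 3 of 3 tags), beside 1.71% higher and 0.643% lower of all 11975 genes tested.

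NK-like cells poor and rich in ribosomal transcripts were compared because droplets that hold mainly a nucleus carry few mRNAs of ribosomal proteins. The lowest 25% of NK-like cells by ribosomal share within each tag, 1980 cells with a median share of 12.1%, were set against the highest 25%, 1979 cells with a median of 22%. Ribosomal protein genes were left out of all totals, so CPM here counts non-ribosomal UMIs only. Dscam, Chl1, Nrgn and Plxnc1 were lower in ribosome-poor cells, Fgf13 was lower by less, and Camk2n1 was higher, in 3 of 3 tags each. Dscam was at 6.43, 10.5 and 8.79 CPM in ribosome-poor cells and at 73.2, 33.4 and 52.1 CPM in ribosome-rich cells, a log2 fold of -2.54 (SE 0.21). Chl1 was at 5.44, 4.62 and 3.30 CPM in ribosome-poor and at 22.1, 18.8 and 18.5 CPM in ribosome-rich cells, a log2 fold of -2.11 (SE 0.25). The classes were apart for both genes, and the share of all genes apart in this comparison was not counted. Nrgn was at 33.7, 31.95 and 36.8 CPM in ribosome-poor and at 115, 125.2 and 135.5 CPM in ribosome-rich cells, a log2 fold of -1.86 (SE 0.097). Plxnc1 was at 39.6, 23.1 and 25.8 CPM in ribosome-poor and at 97.05, 98.3 and 105.8 CPM in ribosome-rich cells, a log2 fold of -1.76 (SE 0.13). Camk2n1 was the exception, at 230.1, 164 and 198.3 CPM in ribosome-poor and at 134.4, 92.5 and 96.9 CPM in ribosome-rich cells, a log2 fold of 0.88 (SE 0.069). Fgf13 was at 229.7, 246.8 and 217 CPM in ribosome-poor and at 322.2, 322.5 and 346.2 CPM in ribosome-rich cells, a log2 fold of -0.49 (SE 0.059).

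**Figure D3:**
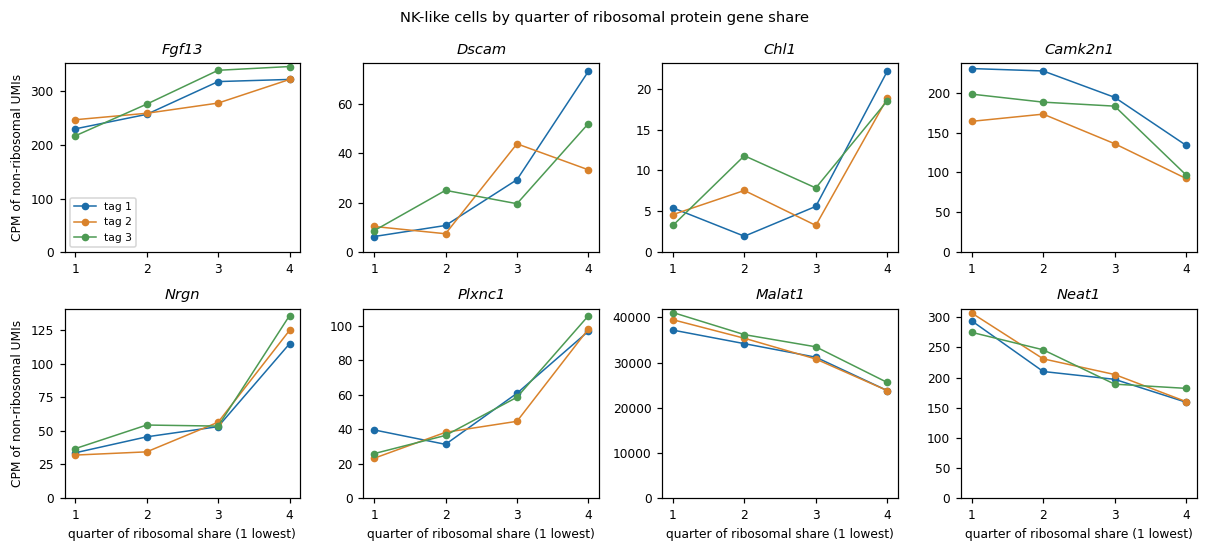
CPM of non-ribosomal UMIs in NK-like cells sorted into 4 equal bins of ribosomal share within each tag, bin 1 being the lowest, for 6 of the genes and 2 nuclear RNAs; each line is a tag. Nrgn and Plxnc1 are highest in bin 4, and Camk2n1, Malat1 and Neat1 are lowest there.

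Ribosomal share moved with maturation and depth. Of the ribosome-poor cells deep enough to be classed, 45.7% were Itgam-only and 6.3% Cd27-only, while of the ribosome-rich cells 18.5% were Itgam-only and 22.5% Cd27-only. Median totals were 3324.5 UMIs in ribosome-poor and 6316 UMIs in ribosome-rich cells. Below against above the median share within Itgam-only cells, the log2 folds were -0.20 for Dscam, -0.19 for Fgf13, -0.61 for Nrgn, -1.26 for Plxnc1, -1.39 for Chl1 and 0.33 for Camk2n1. Within Cd27-only cells they were -0.94 for Dscam, -0.11 for Fgf13, -1.75 for Nrgn, -0.43 for Plxnc1, -1.40 for Chl1 and 0.53 for Camk2n1. All 6 kept their direction within both classes. Without clusters 0 and 8, the log2 fold of Fgf13 was -0.06. Among cells of 2500 to 6000 UMIs only, Nrgn had a log2 fold of -0.73 and Camk2n1 one of 0.38.

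Of the 4 nuclear long non-coding RNAs tested, 2 were higher and 1 lower in the ribosome-poor cells. Malat1 averaged 39290 ± 1948 CPM in ribosome-poor and 24430 ± 1036 CPM in ribosome-rich cells (log2 fold 0.70, SE 0.028, edgeR adjusted p = 1.03e-14, 3 of 3 tags), and Neat1 averaged 292 ± 15.9 and 167.2 ± 13.1 CPM (log2 fold 0.83, SE 0.065, edgeR adjusted p = 9.72e-10, 3 of 3 tags). Kcnq1ot1 was lower, with a log2 fold of -0.51 (SE 0.071, edgeR adjusted p = 7.21e-06, 3 of 3 tags), and Tug1 did not pass the test, with a log2 fold of 0.20 (edgeR adjusted p = 0.19). Of the 31 genes of the 6 lists that passed the filter, 8 were higher and 6 lower, beside 14.4% higher and 18% lower of all 10737 genes tested. The calmodulin, CaM kinase and calcineurin list held 5 higher and 3 lower of 14, with a median log2 fold of 0.094 beside 0.0091 over all genes. Camk1d was the gene of this list with the largest rise (log2 fold 0.60, SE 0.054, edgeR adjusted p = 1.14e-08, 3 of 3 tags), and Camk4, which had 19 UMIs in ribosome-poor cells, fell by 1.55 on the log2 scale (SE 0.34, edgeR adjusted p = 0.0013, 3 of 3 tags). Camk2d had a log2 fold of 0.22 (edgeR adjusted p = 0.012) and Camk2b one of -0.50 (edgeR adjusted p = 0.0037). L1cam, a relative of Chl1, went against it with a log2 fold of 0.94 (SE 0.20, edgeR adjusted p = 0.00082, 3 of 3 tags). Nrp1, a semaphorin co-receptor gene with 9 UMIs in ribosome-poor cells, fell by 1.80 on the log2 scale (SE 0.47, edgeR adjusted p = 0.0047), and Sema4d, a semaphorin gene, fell by 0.30 (SE 0.066, edgeR adjusted p = 0.0012). Within these NK-like quantiles the length of a gene mattered little: the median log2 fold was -0.13 for genes of up to 10 kb and 0.10 for genes beyond 400 kb.

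Cluster 6 showed the far end of the ribosomal range, with a median ribosomal share of 2.3%, a median of 1382 UMIs and a mitochondrial share of 2.93%. It kept NK transcripts, with the 10 NK markers summing to between 8020 and 9660 CPM. Against NK-like cells, its genes differed by length: the median log2 ratio over genes, with 10 CPM added, was -0.95 for spans of up to 10 kb, -0.24 up to 30 kb, 0.37 up to 100 kb, 0.78 up to 200 kb, 0.99 up to 400 kb and 1.04 beyond. Each tag gave this order. The nuclear RNA Malat1 averaged 48200 ± 2950 non-ribosomal CPM in cluster 6 and 31500 ± 1260 CPM in NK-like cells. Gm42418, a long non-coding RNA gene that overlaps ribosomal RNA sequence, averaged 16500 ± 4970 CPM in cluster 6 and 3300 ± 538 CPM in NK-like cells.

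The nerve-associated genes followed this length order in part. Fgf13, at 506 kb, held 1080, 775 and 759 CPM in cluster 6 and 288, 283 and 302 CPM in NK-like cells, a ratio of 3.0. Its log2 ratio with 10 CPM added, 1.57, exceeded those of 97.8% of genes beyond 400 kb. Such ranks are a description only. The genes were picked from clusters of these cells, Fgf13 is among the top 10 genes of cluster 6, and the added 10 CPM favours genes of high level. Plxnc1, at 154 kb, held 229, 123 and 120 CPM in cluster 6 and 62.8, 57.4 and 63.2 CPM in NK-like cells, a ratio of 2.57. Its log2 ratio on that scale, 1.26, exceeded those of 97.2% of genes between 100 and 200 kb. Both genes were apart in all tags, and so were Dscam, Nrgn and Camk2n1. The share of all genes apart between cluster 6 and NK-like cells was not counted. Dscam, at 580 kb, held 78.1, 49.5 and 136 CPM in cluster 6 and 35.9, 26 and 29.8 CPM in NK-like cells, a ratio of 2.88, close to that of Fgf13. With 10 CPM added, which weighs more on a gene of this level, its log2 ratio of 1.14 was near the median of its length. Nrgn and Camk2n1, both under 10 kb, were lower than in NK-like cells, with ratios of 0.234 and 0.273. Chl1, at 240 kb, had 12 UMIs in cluster 6 and a ratio of 1.07. Its log2 ratio with 10 CPM added was 0.04, below which lay 1.79% of genes of that length. Dpp10 had 0 UMIs in cluster 6, which allows up to 2.66 CPM, and 0.86 CPM in NK-like cells, so no change with length could be seen for it at this depth. Fgf13 thus was lower in ribosome-poor than in ribosome-rich NK-like cells but highest in cluster 6, and when clusters with NK as best score, cluster 6 included, were split by ribosomal share its log2 fold was 0.15.

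**Figure D4:**
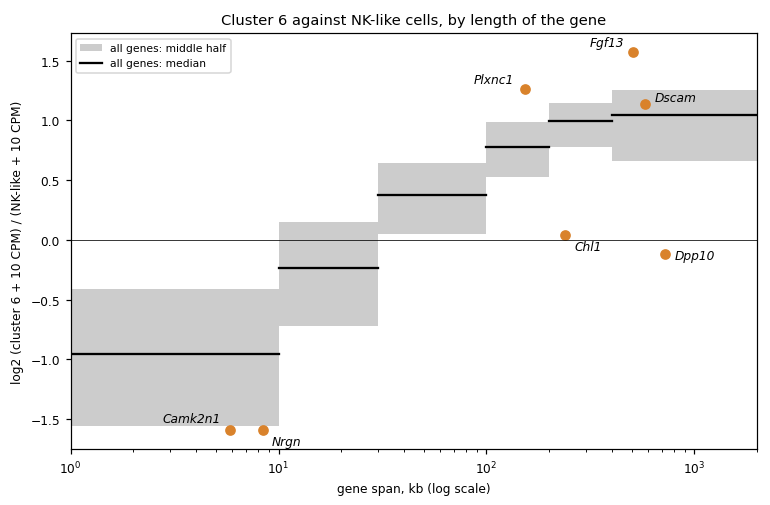
Log2 ratio of cluster 6 over NK-like cells, with 10 CPM added, against gene span on a log axis; the black lines are medians of all genes per span class and the grey boxes run from the 25th to the 75th percentile. Fgf13 and Plxnc1 lie above the boxes of their length, Dscam inside, and Chl1, Nrgn and Camk2n1 below; the place of Dpp10, at 0.86 CPM in NK-like cells, is set by the added 10 CPM and carries no information.

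Co-detection was counted in 7231 NK-like cells thinned to 2500 UMIs, with the expected number of cells from the share of each gene within a tag; it describes 1 library and carries no test. Of these cells 40.6% held none of the 7 genes, 41.4% held 1, 15.1% held 2 and 2.84% held 3 or more. The same shares for 3 or more were 16.9% in cluster 11, 12.3% in dendritic-like cells, 7.64% in ILC1-like cells and 0% in B cell-like cells. Fgf13 and Plxnc1 were found together in 244 cells where 179 were expected, a ratio of 1.37 (95% counting interval 1.20 to 1.55), with 1.51, 1.35 and 1.24 in tags 1, 2 and 3. Dscam and Plxnc1 were found together in 36 cells, a ratio of 1.93 (1.35 to 2.67), and Nrgn and Plxnc1 in 83 cells, a ratio of 1.41 (1.12 to 1.75). Chl1 and Nrgn had a ratio of 2.61 (1.64 to 3.96) from 22 cells, and Dscam and Nrgn one of 1.56 (1.08 to 2.17) from 34 cells. Those genes all had positive Cd27-only log2 folds, but the remaining 5 of the 10 pairs among such genes had intervals that held 1: Fgf13 and Nrgn at 1.07 (0.937 to 1.22), Fgf13 and Dscam at 1.19 (0.944 to 1.49), Fgf13 and Chl1 at 1.13 (0.758 to 1.62), Chl1 and Plxnc1 at 1.40 (0.673 to 2.58), and Dscam and Chl1 at 2.30 (0.844 to 5.01). Camk2n1 and Plxnc1, which run in opposite directions, were found together in 139 cells where 170 were expected, a ratio of 0.817 (0.687 to 0.964). Fgf13 and Camk2n1, both counted mostly in NK-like cells, were found together as often as their shares give, with 595 cells and a ratio of 0.981 (0.904 to 1.06). Within Cd27-only cells Fgf13 and Plxnc1 had a ratio of 1.24 (0.952 to 1.60) and Nrgn and Plxnc1 one of 1.17 (0.717 to 1.81), so an excess of these pairs was not detectable there at this depth, while Chl1 and Nrgn had one of 2.72 (1.10 to 5.61) from 7 cells; within Itgam-only cells Fgf13 and Plxnc1 had a ratio of 1.53 (1.16 to 1.99). Within NK-like cluster 0 (1662 cells) the intervals of Fgf13 and Plxnc1 at 1.12 (0.95 to 1.32) and Dscam and Plxnc1 at 1.13 (0.721 to 1.68) held 1. So did those of Nrgn and Plxnc1 at 1.11 (0.797 to 1.49) and Dscam and Nrgn at 0.877 (0.467 to 1.5), while Chl1 and Nrgn had 2.32 (1.27 to 3.89). The part of mixed clusters in the ratios over all NK-like cells was not tested. All 3 pairs of Dscam, Chl1 and Nrgn had intervals that held 1 in cluster 11, at 1.18 for Dscam and Chl1, 0.985 for Dscam and Nrgn and 1.18 for Chl1 and Nrgn.

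**Figure D5:**
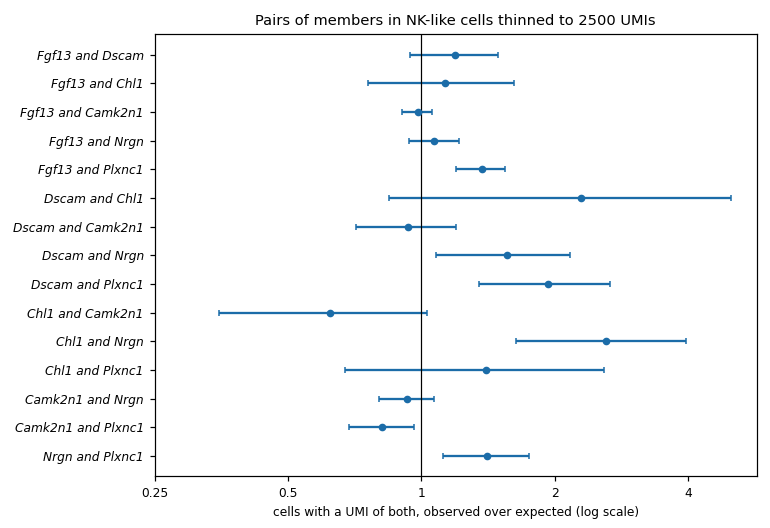
Cells with a UMI of both genes, observed over expected, in 7231 NK-like cells thinned to 2500 UMIs, for the 15 pairs without Dpp10; bars are 95% counting intervals and the axis is logarithmic. Fgf13 and Plxnc1, Dscam and Plxnc1, Dscam and Nrgn, Chl1 and Nrgn, and Nrgn and Plxnc1 lie above 1, and Camk2n1 and Plxnc1 lie below it.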

How the data were processed

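The deposited values are raw UMI counts of each gene in each barcode, and the file headers give Cell Ranger 7.0.0 as their source. Seurat and the build mm10 also stand in the submitters' processing notes. Whether reads in introns were counted is not given in the sources used here, and of the 2 samples in the labels 1 had no matrix and was not analysed here. Barcodes with 500 to 6000 genes, at most 10% mitochondrial UMIs and exactly 1 tag above its Otsu threshold (134, 187 and 131 counts) were kept: 642 failed the filter, 3567 carried several tags and 479 none. No doublet caller was run; the tags removed doublets of different tags. Leiden clusters (leidenalg 0.10.2 in scanpy 1.11.5) were made on 2000 variable genes without ribosomal, mitochondrial, member or list genes, at resolution 1.0 with 30 components and 15 neighbours. Names came from marker lists for 18 cell types, by a score of at least 0.5 with at least 3 markers, and stayed unnamed with 2 or more markers of another type among the top 10 genes (cluster 11 and cluster 20) or, like cluster 6, at a median depth under 1400 UMIs, the library's median divided by 3, with no own marker there. Clusters 0 and 8 have 1 such marker (Cd28 and Il7r) and no NK marker among the top 10; they stayed NK-like by a tolerance chosen after the clusters were seen.

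Sums of counts for each class in each tag were fitted over all genes with edgeR 4.0.16 (R 4.3.3; quasi-likelihood test, TMM, expression filter, tag as block, Benjamini-Hochberg at 0.05). DESeq2 1.42.0 was an alternative, and the fit was tested on simulated data. The replicate block pairs classes of the same tag, since both come from the same tagged cells. P-values and SEs reflect only the spread between tags, which may be technical, as the fit estimates it with information shared over genes. An SE is the log2 fold divided by the square root of its F statistic, and can be smaller than the gene's own tags would give. Gene spans came from the mm10 annotation in GENCODE. Named beside the 7 genes are 14 partner genes and, per list and comparison, up to 3 list genes with the largest change among those called. Ppp3cb and Ppp3cc are named beside Ppp3ca. The members and lists were chosen with earlier results of these data known. The values of 1 list gene are not reported here.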

Additional observations from a re-analysis of the deposited data

How the results depend on the processing

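Of 269 log2 folds of the 6 genes that could be fitted, all but Dpp10, 196 stayed within the spread between tags, 71 moved further and 2 reversed; among all of them, 4 had the other sign. Fgf13 in ribosome-poor cells turned to 0.15 with all clusters whose best score was NK and to 0.18 with NK cells taken by UMIs, the first of which brings in cluster 6, and Fgf13 in Cd3-positive cells turned to -0.11 with all such clusters and to -0.36 without NK-like clusters 0 and 8, an alternative chosen after seeing the data. All 21 co-detection ratios without thinning stayed within the intervals of the thinned ratios, which are wide for rare pairs. The 5 pairs named above whose thinned intervals held 1 had unthinned intervals above 1. These were Fgf13 and Nrgn at 1.18 (1.09 to 1.28), Fgf13 and Dscam at 1.47 (1.27 to 1.69) and Fgf13 and Chl1 at 1.41 (1.14 to 1.72). Chl1 and Plxnc1 had 1.63 (1.19 to 2.18), and Dscam and Chl1 2.86 (1.81 to 4.29). The part of cell depth in the unthinned ratios was not tested. Counts over the 6 lists moved more. They are given out of the list genes tested, with the count over all genes tested in brackets. In Cd27-only cells, 0 of 29 were higher without the replicate block (479 of 10024) and 0 of 92 with DESeq2 (268 of 18936). A gate of 2 UMIs gave 0 of 25 (343 of 7862), and leaving out clusters 0 and 8 gave 0 of 28 (601 of 9597). All NK-scored clusters gave 6 of 30 (1095 of 10498), and NK cells by UMIs 6 of 32 (1119 of 10319). Without tags 1, 2 and 3 in turn, 0 of 31 (568 of 10110), 2 of 29 (639 of 10026) and 3 of 30 (670 of 10149) were higher. Lower were 3 of 92 with DESeq2 (122 of 18936), 3 of 25 with the gate of 2 UMIs (186 of 7862) and 3 of 28 without clusters 0 and 8 (336 of 9597). With each tag left out, 3 to 5 were lower (333 to 429). In ribosome-poor cells, 4 of 92 were higher with DESeq2 (473 of 19424) and 16 of 39 with NK cells by UMIs (2312 of 11333). Among cells of 2500 to 6000 UMIs, 5 of 28 were higher (599 of 9607), and within Cd27-only cells 3 of 25 (102 of 8109). Lower were 1 of 92 with DESeq2 (816 of 19424), 1 of 28 at 2500 to 6000 UMIs (662 of 9607) and 1 of 25 within Cd27-only cells (201 of 8109). NK cells by UMIs gave 3 of 39 lower (2571 of 11333). Leaving out clusters 0 and 8 gave 2 of 29 lower (1619 of 10020), and Itgam-only cells 2 of 28 (358 of 9496). In Cd3-positive cells, 2 of 38 were higher with all NK-scored clusters (728 of 11784) and 2 of 42 with NK cells by UMIs (558 of 12126). Lower were 0 of 35 without the replicate block (15 of 11339), 8 of 38 with all NK-scored clusters (557 of 11784) and 6 of 42 with NK cells by UMIs (438 of 12126). Unthinned classes gave 2 of 37 lower (204 of 11669), the gate of 2 UMIs 2 of 34 (61 of 11198), and leaving out clusters 0 and 8 gave 2 of 31 (52 of 10983). The cause of these moves was not tested. Depth limits Dpp10 and Chl1, which had 26 and 323 UMIs in NK-like cells, and 1 library of 3 tags limits every comparison.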
